A study of Rattus norvegicus with 13 samples.

Results

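The genes described here are the axon guidance families found in mammary gland RNA of the rat, namely the Eph receptors and ephrins, the semaphorins with their plexin and neuropilin receptors, the netrins with neogenin and the Unc5 receptors, and the Slits with the Robo receptors. They were matched by symbol, and 61 of the 14790 genes in the table matched. Of these, 18 were Eph receptors or ephrins, 31 were semaphorins, plexins or neuropilins, 5 were netrins or netrin receptors and 5 were Slits or Robos. The symbol rule also took in Plxdc1 and Plxdc2, the plexin domain-containing proteins, which are not plexins and were counted apart. The RNA-seq libraries came from female Wistar-Furth rats, an inbred strain that is susceptible to mammary cancer, with 6 rats at 6 weeks of age (within WOS, the window of susceptibility) and 7 rats at 10 weeks (outside WOS). Each library was made from 1 rat, and the rats are named here by the numbers in their labels. The glands were minced and digested with collagenase, and ductal fragments were collected, by a nylon filter per the labels and by differential centrifugation per the study's methods, which describe the material as mainly epithelium that also holds stromal fibroblasts and immune cells. All values below are normalized counts, that is, gene counts that the authors scaled by a factor for each library and rounded. Gene lengths were not at hand, so levels were compared between rats and not between genes.

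These families were named for steering growing axons, and they act in the same way on other tissues, as short-range or secreted cues read by receptors on the cell surface that change adhesion and the cytoskeleton. Ephrins are anchored in the membrane and signal on contact, both forward into the cell with the Eph receptor and in reverse into their own cell. Semaphorins bind plexins, and most secreted class 3 semaphorins need a neuropilin as co-receptor. Netrins bind neogenin, Dcc and the Unc5 receptors, and Slits bind Robos. In the mammary gland netrin 1 with neogenin and Slit2 and Slit3 with Robo1 are known for holding the cap cell and luminal layers of the ducts together and for limiting branching, and EphB4 and ephrin-B2 are known for their places in the ductal epithelium and in veins and arteries.

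Of the 61 members, 12 were DE between the ages at an adjusted p under 0.05 (limma, two-sided, adjusted over all genes), which is 19.7% against 16.1% of all genes in the table. The members that were higher within WOS numbered 7, or 11.5% against 8.71% of all genes, and 5 were higher outside WOS, or 8.2% against 7.39%. These shares lie near those of the whole table. The 7 were Sema3c, Sema7a, Sema3g, Nrp1, Plxnd1, Epha3 and Robo1, and the 5 were Sema4d, Sema6a, Efnb2, Ntn4 and Robo2. In 4 of the 61, or 6.56% against 6.07% of all genes, the values of the ages did not overlap at all. The median log2 fold change of the members, 6 weeks over 10 weeks, was 0.17, against 0.028 over all genes. Of the members 36 of 61 lay above 0, and of all genes 7764 of 14790. Changes were small. The called members moved by 1.35-fold to 1.81-fold, and the only member with a log2 fold change beyond 1 in either direction was Epha8 (1.03), which was low in counts and not DE. At an unadjusted p under 0.05 there were 19 members, or 31.1%, against 31.6% of all genes.

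**Figure D1:**
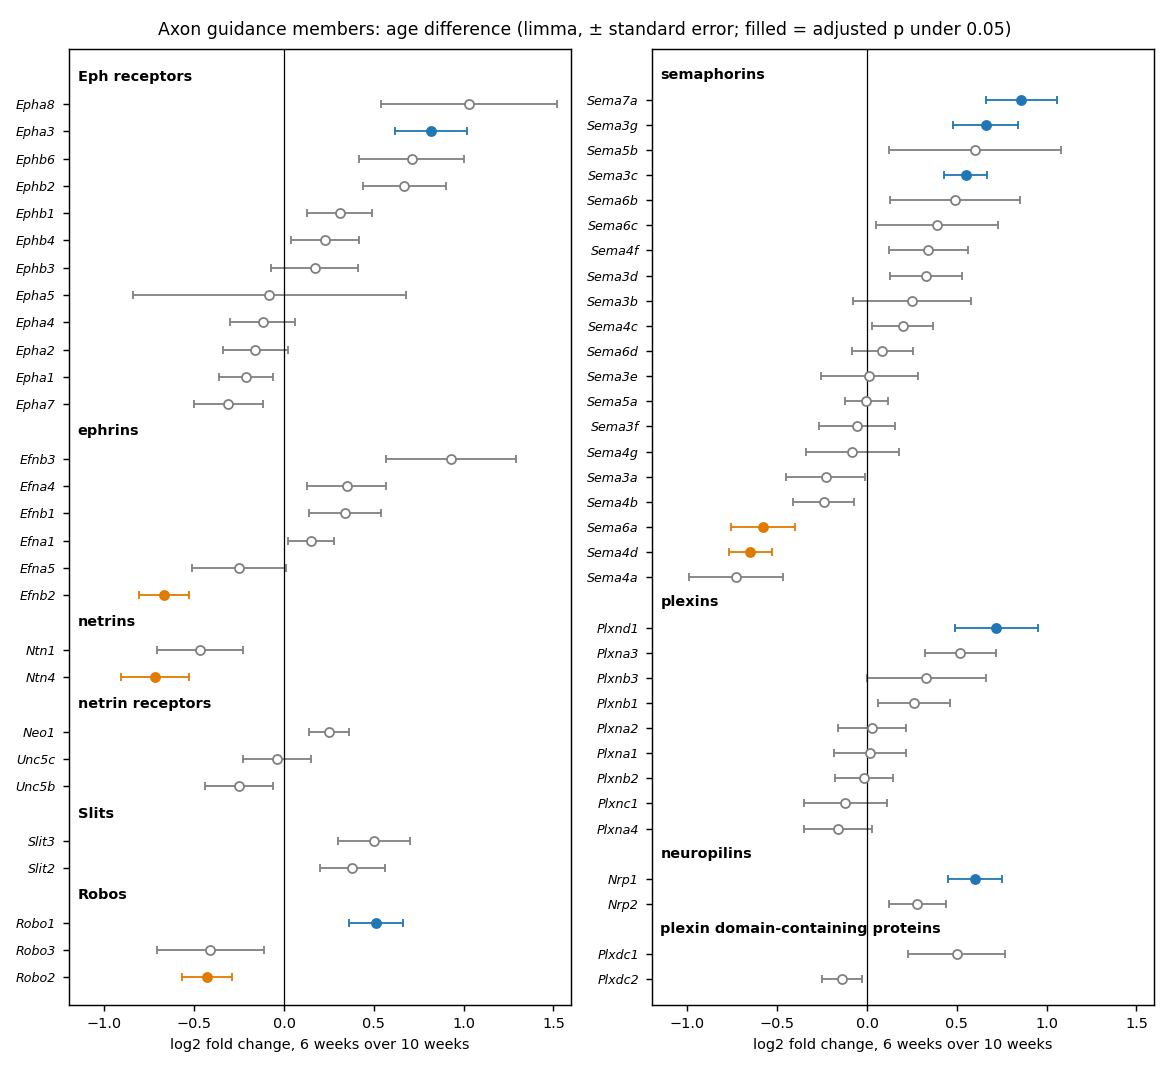
Log2 fold change of normalized counts, 6 weeks over 10 weeks, for each of the 61 members, grouped by role (x axis, log2 scale; points are limma estimates over 6 and 7 rats, bars are standard errors, filled points have an adjusted p under 0.05). The 7 filled blue points lie right of 0 and the 5 filled orange points left of it, and all filled points lie between -0.72 and 0.86.

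Library totals ran from 13261906 to 15659533 normalized counts at 6 weeks and from 13766735 to 15402814 at 10 weeks. Missing whole numbers among the low values showed that 1 read was worth 2.06 normalized counts in rat 78 and 1.92 in rat 80, the shallowest of the 7 libraries in which this step could be read. The variation left after the age means were removed set 5 rats (75 and 80 at 6 weeks, 78, 81 and 83 at 10 weeks) apart from the other 8, along a first component with 28.3% of it. These are called the smaller and the larger set. They were defined from the data and are not a batch named in the labels, and each holds rats of both ages. With the smaller set alone limma called 0 of all genes, and 1976 had an unadjusted p under 0.05. All 12 called members kept their direction in either set. The number of DE members was 8 without rats 78 and 80 (13.1%, against 12.5% of all genes), 7 of them among the 12. It was 6 without rat 70 or without rat 87 (9.84% each, against 9.54% and 10.5% of all genes).

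Epithelial markers were present in every rat, with none of them at 0. The 12 luminal markers summed to 38836 to 56299 at 6 weeks and 52418 to 66806 at 10 weeks, and the 10 basal markers to 26222 to 40734 and 36311 to 47289, with overlap between the ages in both lists. Of the luminal markers 10 of 12 had log2 fold changes below 0 and 2 were DE, Epcam and Cdh1, both higher outside WOS. The basal markers split, with 5 above 0 and 5 below, and Cnn1 alone was DE, higher outside WOS. The 9 fibroblast markers in the table summed to 106987 to 223141 within WOS and 19694 to 56120 outside WOS, with no overlap. Of these, 4 were higher within WOS (Col3a1 with a log2 fold change of 2.14, Lum 2.02, Col1a1 1.92, Thy1 1.09), while 5 did not pass, among them Dcn (0.57, adjusted p = 0.197), Pdgfra (0.13, adjusted p = 0.78) and Fbln1 (-0.24, adjusted p = 0.518). Col3a1 and Col1a1, with means of 107790 and 50184 within WOS, made up most of the sum. The other 7 fibroblast markers summed to 10192 to 21585 within WOS and 4826 to 14777 outside WOS, which overlap. The 8 pericyte markers summed to 6315 to 9360 within WOS and 3768 to 5646 outside WOS, also with no overlap, and 4 of them rose. The 9 blood endothelium markers overlapped between the ages (6952 to 11805 and 6381 to 10496), with Cldn5 alone higher within WOS.

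The remaining lists bear on nerve, immune cells, fat and growth. Schwann cell markers (7 in the table, none DE and 1 at an unadjusted p under 0.05) summed to 2331 to 4265 and 2495 to 3526 at 6 and 10 weeks, and neuron markers (3 of 8 in the table, 2 higher within WOS) to 78 to 163 and 31 to 99. The 6 mast cell markers all rose within WOS (406 to 965 against 25 to 240), as did the 8 cell division genes (2425 to 5166 against 287 to 1344). Among 8 macrophage markers none was DE (1 at an unadjusted p under 0.05, sums of 612 to 1438 and 595 to 1356), of 4 lymphocyte markers 1 was higher within WOS (73 to 210 and 90 to 314), of 7 adipocyte markers 3 were (1825 to 2665 and 1953 to 3026), of 4 lymphatic markers Pdpn alone was higher outside WOS (2840 to 3442 and 3099 to 4384), and of 3 skeletal muscle markers none was DE (1 at an unadjusted p under 0.05, 42 to 73 and 16 to 62). In bulk RNA, fewer cells of a type and less RNA per cell cannot be told apart. The members that were higher within WOS shared their direction with the pericyte list and with the fibroblast list and its collagens. The mast cell and cell division lists had the same direction, also with no overlap between the ages. The members that were higher outside WOS shared their direction with 10 of 12 luminal markers, whose sums overlapped between the ages. Of these markers 2 of 12 were DE, near the share of 16.1% of all genes in either direction. Both were higher outside WOS, as were 7.39% of all genes. Higher within WOS were 4 of 9 fibroblast, 4 of 8 pericyte, 6 of 6 mast cell and 8 of 8 cell division markers, against 8.71% of all genes. Members and lists were not compared rat by rat. The part of these lists in the members' results was not tested.

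**Figure D2:**
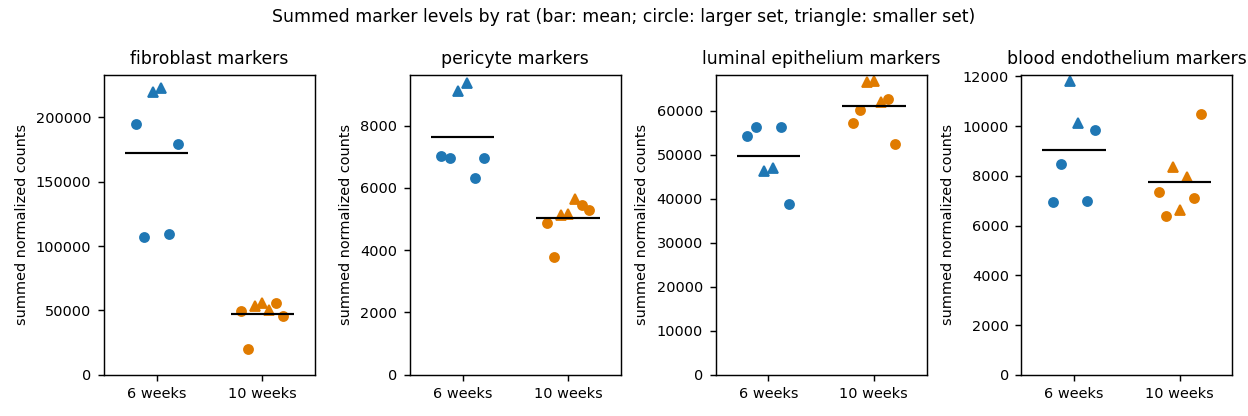
Summed normalized counts (y axis, linear) of the fibroblast, pericyte, luminal and blood endothelium marker lists in each rat at 6 weeks (blue) and 10 weeks (orange). Circles are the larger set of rats, triangles the smaller set and bars the means, and the fibroblast and pericyte sums of the ages do not overlap while the blood endothelium sums do.

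Among the secreted class 3 semaphorins, 2 of 7 were DE (28.6%, against 16.1% of all genes), both higher within WOS, as were 8.71% of all genes. Sema3c (ENSRNOG00000006526), a ligand of neuropilins and plexins and the best known of the class in epithelial branching, had normalized counts of 2490 at the lowest, 2719 at the median and 3306 at the highest within WOS, and of 1427, 2054 and 2199 outside WOS. Every 6-week rat was above every 10-week rat. Its mean was 2840 ± 312 (SD, n = 6) against 1945 ± 283 (SD, n = 7), a log2 fold change of 0.55 (SE 0.12, adjusted p = 0.0104) or 1.47-fold. It stayed DE with each rat left out in turn (13 of 13 fits, 0.48 to 0.59) and was DE in the larger set alone (0.50, adjusted p = 0.0187). Sema3g (ENSRNOG00000018952), known from arterial endothelium, ranged over 113, 166 and 274 (lowest, median, highest) within WOS and 88, 101 and 136 outside WOS, and 5 of the 6 younger rats were above all older ones. Its log2 fold change was 0.66 (SE 0.18, adjusted p = 0.0286), from means of 178 ± 54.6 and 109 ± 18.1 (SD). Sema3g was DE in 8 of 13 fits that left out 1 rat, and missed the threshold without rat 70, 75, 72, 74 or 87 (adjusted p = 0.0508 to 0.0613).

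The other 5 class 3 genes did not pass. Sema3d had a log2 fold change of 0.33 (SE 0.20), Sema3b of 0.25 (SE 0.33), Sema3e of 0.013 (SE 0.27), Sema3f of -0.055 (SE 0.21) and Sema3a, the classic repellent of sensory axons, of -0.23 (SE 0.22). Sema3e, whose receptor is plexin D1, stood within 499 to 804 in the 6-week rats, while the 10-week rats split widely. Rats 78 and 81 had 382 and 308, and the other 10-week rats had 696 to 984. The larger set alone gave -0.44 and the smaller set alone 0.70 for Sema3e, a difference that was not tested.

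Sema7a (ENSRNOG00000007687) had the largest fold change of the called members. It is tethered to the membrane by a GPI anchor and acts through integrins and plexin C1. Within WOS its lowest, median and highest values were 603, 803.5 and 1108, and outside WOS 251, 467 and 587, with no overlap. The means were 827 ± 196 (SD, n = 6) and 459 ± 106 (SD, n = 7), a log2 fold change of 0.86 (SE 0.20, adjusted p = 0.0139) or 1.81-fold. All 13 fits that left out 1 rat kept it (0.72 to 0.94), as did the larger set alone (0.84, adjusted p = 0.0355). Its plexin receptor Plxnc1 was low at 18 to 57 and 32 to 50, with a log2 fold change of -0.12 (SE 0.23, adjusted p = 0.756).

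Among the transmembrane semaphorins, 1 of 6 in class 4 (16.7%), 0 of 2 in class 5 and 1 of 4 in class 6 (25.0%) were DE. The share over all genes was 16.1%. Both DE genes were higher outside WOS, as were 7.39% of all genes. Whether the semaphorin classes differ was not tested. Sema4d (ENSRNOG00000013679), a ligand of plexin B1 that is shed from cell surfaces and known in immune cells and in vessel growth, had the smallest adjusted p of all members. Its values were 330, 353.5 and 402 (lowest, median, highest) within WOS and 433, 560 and 720 outside WOS, so that all older rats were above all younger ones. The means of 362 ± 29.6 (SD, n = 6) and 573 ± 91.1 (SD, n = 7) gave a log2 fold change of -0.65 (SE 0.12, adjusted p = 0.00343), 1.57-fold higher outside WOS. It stayed DE in 13 of 13 fits without 1 rat (-0.72 to -0.59), in the larger set alone (adjusted p = 0.0134) and without the shallow libraries of rats 78 and 80 (-0.64, adjusted p = 0.0102). Of its receptors, Plxnb1 gave 0.26 (SE 0.20, adjusted p = 0.402).

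Sema6a (ENSRNOG00000004033), a membrane-bound ligand of A-type plexins, was less even. It had 1045, 1353.5 and 1616 within WOS and 1608, 1762 and 3258 outside WOS, and 5 of 6 younger rats were below all older ones. The outside-WOS range was opened by rats 78 (2637) and 81 (3258), the same rats that were low in Sema3e, with the other 5 at 1608 to 2011. The log2 fold change was -0.58 (SE 0.18, adjusted p = 0.0474), from means of 1364 ± 213 and 2085 ± 630 (SD). This call held in 3 of 13 fits without 1 rat, being lost without rat 70, 71, 75, 80, 84, 72, 74, 78, 81 or 87 (adjusted p = 0.0505 to 0.11), and also when libraries were scaled to the same upper quartile and in the larger set alone (-0.45, adjusted p = 0.0662). Its receptors Plxna2 (0.029, SE 0.19) and Plxna4 (-0.16, SE 0.19) did not pass.

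The uncalled class 4 to 6 genes lay between -0.73 and 0.60. Sema4a, a class 4 ligand known in immune cells, had the largest shift outside WOS of any member, at -0.73 (SE 0.26, adjusted p = 0.0695), from 238 to 420 within WOS and 305 to 983 outside WOS. Rats 78 and 81 again stood high at 768 and 983, against 305 to 502 in the other 10-week rats. Sema4b (-0.24), Sema4c (0.20), Sema4f (0.34) and Sema4g (-0.081) did not pass, nor did Sema6b (0.49), Sema6c (0.39) and Sema6d (0.084). Sema5a, with 2333 to 3569 normalized counts over all rats, gave -0.0034 (SE 0.12, adjusted p = 0.987), while Sema5b was low in counts at 3 to 39 and gave 0.60 (SE 0.48).

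The receptors of the secreted semaphorins were next. Nrp1 (ENSRNOG00000010744), neuropilin 1, is a co-receptor of class 3 semaphorins and of VEGF-A and is known in endothelium, smooth muscle and some stromal cells. Its lowest, median and highest values were 1186, 1397 and 1865 within WOS and 754, 860 and 1209 outside WOS. All but 1 of the 6 younger rats were above all older rats. The means were 1471 ± 275 (SD, n = 6) and 970 ± 187 (SD, n = 7), a log2 fold change of 0.60 (SE 0.15, adjusted p = 0.0206) or 1.52-fold. Each fit without 1 rat kept the call, but it was lost with both shallow libraries left out (0.55, adjusted p = 0.053) and in the larger set alone (0.38, adjusted p = 0.16). The smaller set alone gave 0.94, and the difference between the sets was not tested. Nrp2, which is also known from veins and lymphatics, gave 0.28 (SE 0.16, adjusted p = 0.244).

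Plexins carry the signal into the cell, and 1 of 9 was DE, or 11.1% against 16.1% of all genes. Plxnd1 (ENSRNOG00000025209), the receptor of Sema3e and, with neuropilins, of Sema3c in vessels, had 425, 509.5 and 862 within WOS and 211, 380 and 472 outside WOS. Only 3 of 6 younger rats exceeded all older ones, and the highest were rats 75 (862) and 80 (794) of the smaller set. Its log2 fold change was 0.72 (SE 0.23, adjusted p = 0.0479), from means of 590 ± 192 and 355 ± 92.5 (SD). The call held in 4 of 13 fits, being lost without rat 70, 75, 80, 84, 72, 74, 78, 85 or 87 (adjusted p = 0.0501 to 0.0904), and it was also lost with median-ratio scaling and with a pseudocount of 0.1. Plxna3 came nearest of the others, at 0.52 (SE 0.20, adjusted p = 0.103). Plxna1 (0.018, SE 0.20) and Plxnb2 (-0.018, SE 0.16) lay close to 0, and Plxnb3 (0.33, SE 0.33) was low at 6 to 31. Plxdc1 (0.50, SE 0.27) and Plxdc2 (-0.14, SE 0.11) did not pass either.

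**Figure D3:**
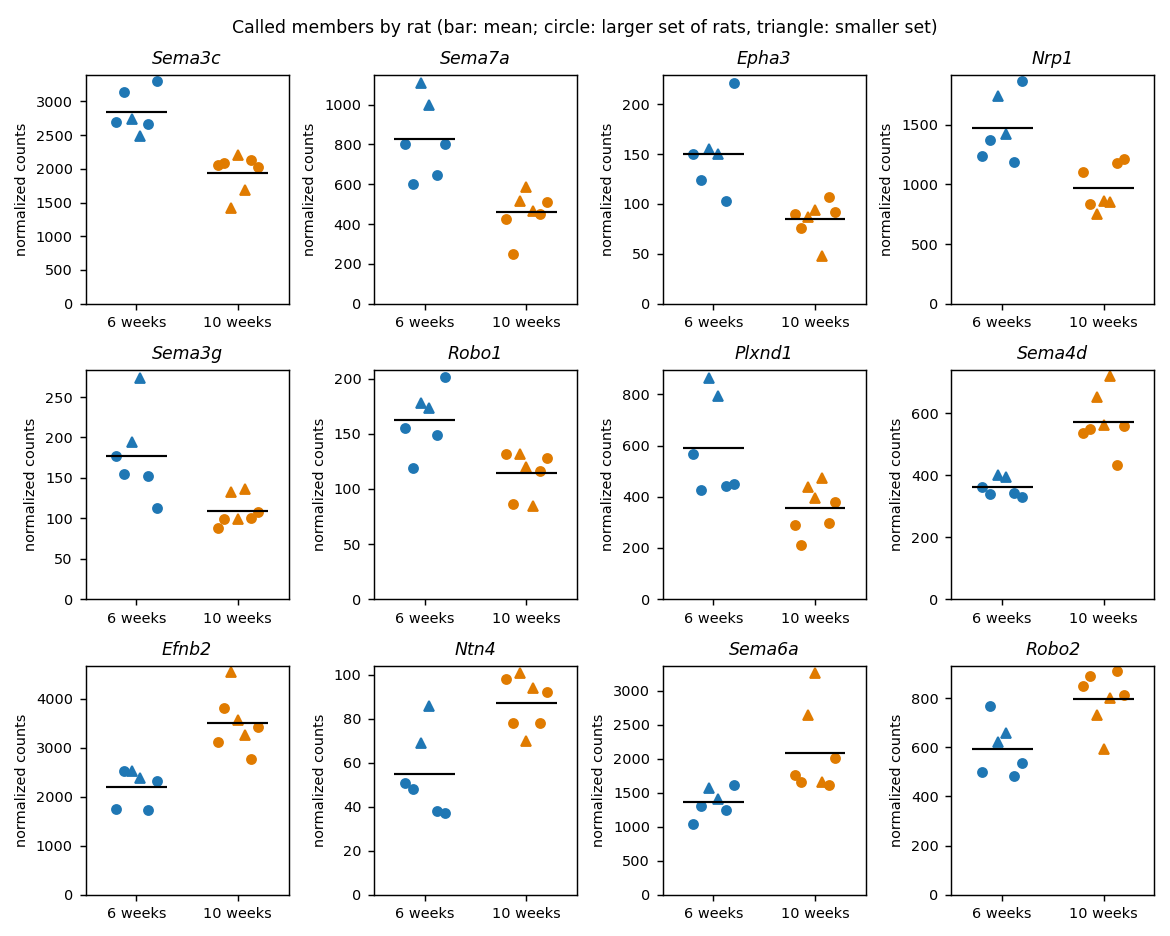
Normalized counts (y axis, linear, from 0) of the 12 called members in each rat at 6 weeks (blue) and 10 weeks (orange). Circles are the larger set of rats, triangles the smaller set and bars the means, and in Sema3c, Sema7a, Sema4d and Efnb2 the ages do not overlap.

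Across Eph receptors and ephrins 2 of 18 were DE, or 11.1% against 16.1% of all genes. Efnb2 (ENSRNOG00000014648), ephrin-B2, is the transmembrane ligand of EphB receptors and the mark of arteries, and is also made by mammary epithelium. It had 1731, 2342.5 and 2519 (lowest, median, highest) within WOS and 2775, 3415 and 4533 outside WOS, and the ages did not overlap. The means of 2201 ± 363 (SD, n = 6) and 3493 ± 562 (SD, n = 7) gave a log2 fold change of -0.67 (SE 0.14, adjusted p = 0.00747), 1.59-fold higher outside WOS. All 13 fits without 1 rat kept it (-0.72 to -0.60), and the sets gave -0.67 and -0.61, the former with an adjusted p of 0.0274.

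Of the receptors that bind ephrin-B ligands none was DE. All 5 EphB genes had log2 fold changes above 0, between 0.17 and 0.71, and 2 of them had an unadjusted p under 0.05. Ephb2 was the closest of all uncalled members, with 107 to 187 within WOS and 49 to 124 outside WOS (0.67, SE 0.23, adjusted p = 0.0599). Ephb6, a receptor without kinase activity, gave 0.71 (SE 0.29, adjusted p = 0.111), Ephb1 0.31 (SE 0.18), Ephb4, the main partner of ephrin-B2, 0.23 (SE 0.19, adjusted p = 0.421) and Ephb3 0.17 (SE 0.24). The other ephrin-B genes did not pass. Efnb3 was low, at 6 to 27 within WOS and 2 to 13 outside WOS (0.93, SE 0.36, adjusted p = 0.101), and Efnb1 gave 0.34 (SE 0.20, adjusted p = 0.274).

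On the A side, Epha3 (ENSRNOG00000030285), a receptor of ephrin-A ligands known from mesenchyme, was the DE member. It had 103, 150 and 221 within WOS and 48, 90 and 107 outside WOS, and 5 of 6 younger rats were above all older ones. The log2 fold change was 0.82 (SE 0.20, adjusted p = 0.0166), or 1.76-fold, from means of 150 ± 39.9 and 84.9 ± 18.7 (SD). Epha3 stayed DE in 13 of 13 fits without 1 rat and missed the threshold in the larger set alone (0.66, adjusted p = 0.0724). Epha8 was at 3 to 33 and 3 to 10 (1.03, SE 0.49, adjusted p = 0.168), so that few reads lay behind its value. Epha1 (-0.21), Epha2 (-0.16), Epha4 (-0.12) and Epha7 (-0.31) did not pass, and Epha5, at 0 in rat 80 and up to 40 elsewhere, had too wide an error to place (-0.083, SE 0.76). Of the ephrin-A ligands, Efna1 gave 0.15 (SE 0.13), Efna4 0.35 (SE 0.22) and Efna5 -0.25 (SE 0.26).

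Sema3c, its co-receptor Nrp1 and Efnb2 are shown with the 250 bases before their start, since Sema3c and Nrp1 are a ligand and a co-receptor that were both higher within WOS and Efnb2 moved the other way. The sequences are from RefSeq, build GRCr8, 5′ to 3′ on the strand of the gene, at chr4:18699628-18699877 (minus) for Sema3c, chr19:73256307-73256556 (plus) for Nrp1 and chr16:87484965-87485214 (plus) for Efnb2. Capitals mark a CCAAT box, written ATTGG where it lies on the other strand.
Sema3c: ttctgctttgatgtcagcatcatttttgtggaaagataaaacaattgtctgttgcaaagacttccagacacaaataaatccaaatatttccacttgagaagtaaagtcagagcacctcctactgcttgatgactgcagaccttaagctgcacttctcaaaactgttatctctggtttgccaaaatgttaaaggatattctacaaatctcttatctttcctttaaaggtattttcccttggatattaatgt
Nrp1: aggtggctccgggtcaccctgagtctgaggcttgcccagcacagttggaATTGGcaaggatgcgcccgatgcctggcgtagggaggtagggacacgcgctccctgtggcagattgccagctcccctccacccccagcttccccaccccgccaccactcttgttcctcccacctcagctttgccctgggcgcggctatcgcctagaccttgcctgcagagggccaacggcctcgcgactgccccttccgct
Efnb2: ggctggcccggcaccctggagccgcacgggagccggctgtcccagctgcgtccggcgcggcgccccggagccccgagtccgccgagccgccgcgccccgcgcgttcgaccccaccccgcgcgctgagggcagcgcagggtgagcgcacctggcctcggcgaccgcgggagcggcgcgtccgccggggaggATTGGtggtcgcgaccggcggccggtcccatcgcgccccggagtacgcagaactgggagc

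The windows differed in base composition. GC content was 35.2% for Sema3c, 66.4% for Nrp1 and 80.4% for Efnb2, against a median of 51.2% over 33469 promoters, and there were 0, 14 and 43 CpG dinucleotides, against a median of 5. Besides the CCAAT box, the windows were searched on both strands for the GC box, by the letters GGGCGG. The element known from many tissue-specific promoters, TATAAA, was searched likewise. A CCAAT box was found in the Nrp1 and Efnb2 windows, as in 34.0% of all promoters, and the GC box (30.5% of all) and TATAAA (12.9% of all) in none of the 3. Such matches describe letters and not binding.

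Of the netrins and their receptors 1 of 5 was DE, against 16.1% of all genes, and none in 5 of the 13 fits that left out 1 rat. Ntn4 (ENSRNOG00000005573), netrin 4, is a basement membrane netrin that binds laminin. It was low, with 37, 49.5 and 86 within WOS and 70, 92 and 101 outside WOS, and 5 of 6 younger rats were below all older ones. The log2 fold change was -0.72 (SE 0.19, adjusted p = 0.0253), or 1.64-fold higher outside WOS, from means of 54.8 ± 19.2 and 87.3 ± 11.8 (SD). It was DE in 8 of 13 fits, being lost without rat 70, 71, 84, 72 or 87 (adjusted p = 0.0502 to 0.0592), and was lost when libraries were scaled to equal totals. The larger set alone gave -0.98 (adjusted p = 0.00569) and the smaller set alone -0.18. Ntn1, a secreted netrin, gave -0.47 (SE 0.24, adjusted p = 0.209), with 157 to 308 within WOS and 196 to 538 outside WOS. Its receptor Neo1, neogenin, was higher than in all older rats in 5 of 6 younger rats (1776 to 2677 against 1510 to 1980), a shift of 0.25 (SE 0.11, adjusted p = 0.131) that did not pass. Unc5b (-0.25, SE 0.19) and Unc5c (-0.038, SE 0.19) did not pass.

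Among Slits and Robos 2 of 5 genes were DE (40.0%, against 16.1% of all genes), and the count fell to 0 in 9 of the 13 fits that left out 1 rat. The 2 were receptors, 1 higher at each age. Robo1 (ENSRNOG00000029614), known in the mammary gland from the basal layer, had 119, 164 and 202 within WOS and 85, 120 and 132 outside WOS, with 5 of 6 younger rats above all older ones. Its log2 fold change was 0.51 (SE 0.15, adjusted p = 0.0405), from means of 163 ± 28.4 and 114 ± 20.4 (SD). Robo2 (ENSRNOG00000029598) had 485, 578 and 766 within WOS and 592, 813 and 911 outside WOS, with 3 of 6 younger rats below all older ones. Its log2 fold change was -0.43 (SE 0.14, adjusted p = 0.0492), from means of 594 ± 109 and 798 ± 109 (SD). Both calls lay close to the threshold. Robo1 was DE in 4 of 13 fits and was lost without rat 70, 75, 80, 84, 86, 74, 83, 85 or 87 (adjusted p = 0.0543 to 0.077), and it was also lost with sample quality weights and in the larger set alone (0.43, adjusted p = 0.142). Robo2 was DE in 2 of 13 and was lost without rat 70, 75, 80, 84, 86, 72, 74, 78, 83, 85 or 87 (adjusted p = 0.051 to 0.113), and it was also lost when libraries were scaled to equal totals.

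The ligands lay on the side of Robo1. Slit3 gave 0.50 (SE 0.20, adjusted p = 0.108), with 1038 to 1989 within WOS and 682 to 1388 outside WOS, and Slit2 gave 0.38 (SE 0.18, adjusted p = 0.16). Robo3 was low (6 to 28 and 12 to 19) and gave -0.41 (SE 0.30, adjusted p = 0.384).

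Ratios taken within a rat do not depend on the scaling of its library, and 4 pairs are given as a description, chosen after the values were seen and with no test. Since gene lengths were not used, a ratio can be read between rats and not as a ratio of molecules. Robo2 over Robo1 ranged from 2.65 to 6.44 (median 3.37) within WOS and from 4.93 to 10.3 (median 6.43) outside WOS. Among the younger rats only rat 71, at 6.44, reached into the range of the older ones. Efnb2 over Ephb4 was 1.87 to 4.83 (median 2.73) within WOS and 3.36 to 7.48 (median 4.93) outside WOS, and here it was rat 86 that reached the older range. Sema3c over Sema4d was 6.34 to 10.0 within WOS and 2.19 to 4.94 outside WOS, with no overlap. Every younger rat was above every older rat in Sema3c and below every older rat in Sema4d. The lack of overlap in their ratio follows from this and adds nothing to it. Nrp1 over Nrp2 was 0.644 to 0.903 within WOS and 0.521 to 0.765 outside WOS.

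**Figure D4:**
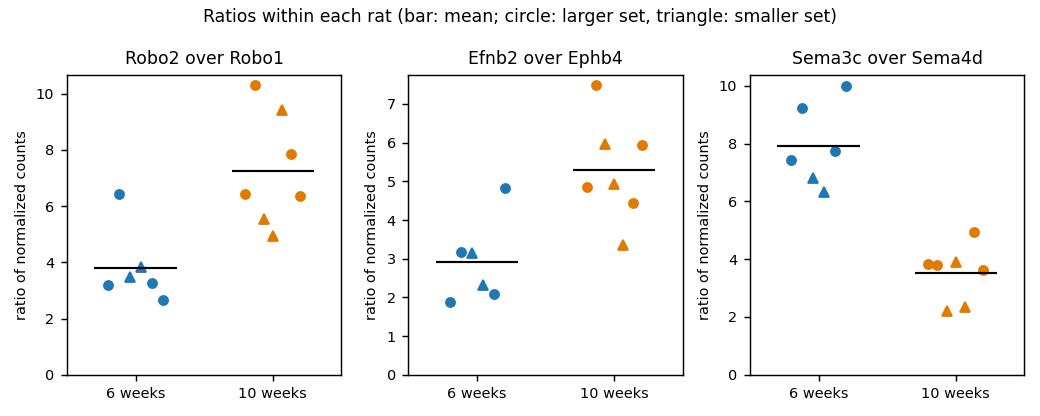
Ratio of the normalized counts of 2 members within each rat (y axis, linear, from 0), at 6 weeks (blue) and 10 weeks (orange), with circles for the larger set of rats, triangles for the smaller set and bars for means. Robo2 over Robo1 and Efnb2 over Ephb4 are mostly lower at 6 weeks with 1 younger rat in the older range each. Sema3c over Sema4d is higher at 6 weeks in every rat, which follows from the lack of overlap in each gene.

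**Figure D5:**
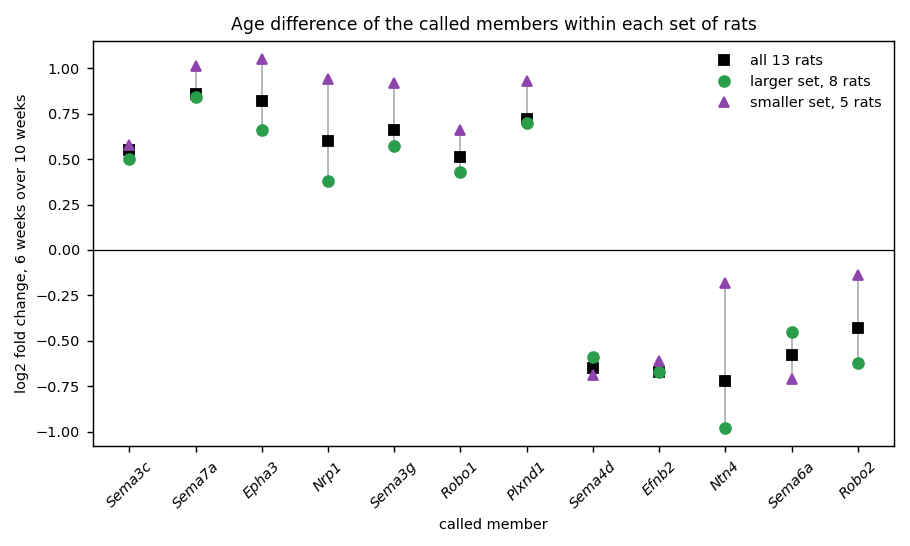
Log2 fold change, 6 weeks over 10 weeks (y axis, log2 scale), of the 12 called members in all 13 rats (squares), in the larger set of 8 rats (circles) and in the smaller set of 5 rats (triangles). Every point of a member lies on the same side of 0, and Nrp1, Ntn4 and Robo2 differ most between the sets.

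The rest of the pathway was followed with lists of 78 further genes, of which 72 were in the table as 73 records, since Abl1 has 2. Of these records 12 were DE (16.4% against 16.1% of all genes). Higher within WOS were 5 (6.85% against 8.71%) and higher outside WOS 7 (9.59% against 7.39%), shares near those of all genes. The median log2 fold change was -0.091, against 0.028 over all genes. The list of other ligands and co-receptors held 6 of the 12 among 19 genes (31.6%, against 16.1% of all genes). Met, the HGF receptor and a partner of B-type plexins, was higher outside WOS with no overlap (4206 to 5921 against 6946 to 8631, log2 fold change -0.66, SE 0.10, adjusted p = 0.00111). Vegfa, which competes with class 3 semaphorins for Nrp1, was also higher outside WOS with no overlap (1862 to 2659 against 2854 to 4046, -0.62, SE 0.11, adjusted p = 0.00358), so that it moved opposite to Nrp1. Dcc, a netrin receptor that the symbol rule did not take in, had 0 to 16 within WOS and 13 to 27 outside WOS (-1.65, SE 0.51, adjusted p = 0.0432). It held in 4 of 13 fits (lost without rat 70, 75, 84, 72, 74, 78, 81, 85 or 87, adjusted p = 0.0549 to 0.0803). The size of the Dcc value rested on counts at and near 0, being -1.10 without rat 80 (adjusted p = 0.011), -1.05 without rats 78 and 80 (adjusted p = 0.0202) and -2.26 with a pseudocount of 0.1, where it missed the threshold (adjusted p = 0.123).

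In the other direction, Flrt2, an adhesion protein that binds Unc5 receptors, rose within WOS (353 to 616 against 158 to 355, log2 fold change 0.89, SE 0.20, adjusted p = 0.0107). L1cam, a cell adhesion molecule and partner of Nrp1, rose as well (87 to 175 against 54 to 105, 0.77, SE 0.20, adjusted p = 0.0198). Both stayed DE in all 13 fits without 1 rat and missed the threshold in the larger set alone (Flrt2 0.53, adjusted p = 0.0622, and L1cam 0.38, adjusted p = 0.173), while the smaller set alone gave 1.48 and 1.42. L1cam was also lost without rats 78 and 80 (0.61, adjusted p = 0.0607). Gpc1, glypican 1, a heparan sulfate proteoglycan that binds Slits, gave 1.12 (SE 0.35, adjusted p = 0.0482) and held in 3 of 13 fits (lost without rat 70, 71, 75, 80, 84, 72, 74, 78, 85 or 87, adjusted p = 0.052 to 0.111). It was also lost with median-ratio scaling (adjusted p = 0.0514) and with a pseudocount of 0.1 (adjusted p = 0.0521).

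Of 28 records of cytoskeletal effectors and adaptors 3 were DE, or 10.7% against 16.1% of all genes. Of these, 1 was higher within WOS (3.57%, against 8.71%) and 2 outside WOS (7.14%, against 7.39%). Limk2, the kinase that inactivates cofilin, rose within WOS (511 to 834 against 366 to 531, 0.72, SE 0.13, adjusted p = 0.0032). Dpysl5, a collapsin response mediator of the CRMP family, was higher outside WOS with no overlap at low counts (19 to 38 against 39 to 88, -1.0, SE 0.21, adjusted p = 0.0074). Limk2 and Dpysl5 held in 13 of 13 fits.

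All 61 members passed the minimum mean of 1 normalized count, 14 had a mean over 1000, and 11 a mean under 50. Values under 10 occurred in 7 members. No member shared all its values with another gene. Of the 12 called members, 8 overlap another RefSeq gene span and 4 do not, and none of the overlapping genes was in the table, so reads of such genes could be counted for the member where the counting did not use strand, which is not given in the sources used here.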

How the data were processed

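RNA was measured by RNA-seq in mammary ductal fragments of 13 rats, 6 at 6 weeks and 7 at 10 weeks, with 1 library per rat. Per the labels and the processing notes, the authors estimated gene counts with RSEM 1.2.22. The deposited per-rat values are whole numbers that skip integers in 7 rats (checked from 1 to 60), so they were taken as a score, namely counts that the authors scaled by 1 factor per library and rounded, here called normalized counts. The processing notes name build rn5, and the annotation, the scaling method and the use of strand are not given in the sources used here. The authors' table also holds their own comparison (log2 fold change, abundance, test statistic, p-value and false discovery rate, with status columns) and a word on nuclear or cytoplasmic location, none of which was used. edgeR and DESeq2, named in the processing notes, were not used here, since the values are scaled.

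The normalized counts were put on the log2 scale after adding 1, and the ages were compared in R 4.3.3 with the limma package (3.58.1), without covariates. A minimum mean of 1 removed none of the 14790 genes. Two-sided p-values were corrected over all genes by the Benjamini-Hochberg method, and DE means an adjusted p under 0.05. A log2 fold change is 6 weeks over 10 weeks on this scale, and understates changes of low genes. The script was tested on simulated data. Members were taken by symbol and all may be named. Called members are given in full, as are the 5 uncalled ones with the smallest p, the partners of called members and those among the 10 called pathway genes with the largest change that lie in the lists described, while the genes of 1 further pathway list are counted in the total and not reported here. The members and the gene lists were chosen with earlier results of these data known. Promoter sequences are from RefSeq (GRCr8), and the promoter sequences at hand covered 46 of the 61 members. Depth differed, with 1 read worth up to 2.06 normalized counts, and p-values reflect spread between rats. Sums, ratios and figures were computed with pandas 2.3.3, numpy 2.4.6 and matplotlib 3.10.9 under Python 3.11.15.

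The alternatives were median-ratio, equal-total and upper-quartile scaling, a pseudocount of 0.1, minimums of 10 in every rat or on the mean, limma-trend, sample quality weights, each rat left out, each set of rats alone, and the first residual component as a term. Leaving out rats 78 and 80 was added after seeing the data.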

Additional observations from a re-analysis of the deposited data

Results flagged for a closer look

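In 9 of 122 groups (61 members at 2 ages) 1 rat stood far from the others of its age. Chance gives about 1 in 20 for both ends together if values are normally distributed, which was not checked. In all 9 the rat was the highest, on counts that were not put on the log2 scale. The share of such groups over all genes is not given here. The 9 groups belong to 7 members, none of them DE. Ephb6 was 181 in rat 70 at 6 weeks (60 to 102 in the others) and 136 in rat 83 at 10 weeks (35 to 67). Slit2 was 887 in rat 86 at 6 weeks (432 to 558). Plxdc2 was 1333 in rat 81 at 10 weeks (901 to 1022), and Plxna2 was 3078 in rat 87 at 10 weeks (1755 to 2243). In rat 80 at 6 weeks Plxnb3 was 31 (7 to 14) and Sema4g 88 (36 to 49), and this rat has 1 of the shallowest libraries. Sema5b was 39 in rat 75 at 6 weeks (8 to 17) and 31 in rat 78 at 10 weeks (3 to 12).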

How the results depend on the processing

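None of the 12 called members, the 5 uncalled members with the smallest p or the 10 largest called pathway genes changed direction under the alternatives that could be computed for them, up to 25, and the 3 scalings moved the median log2 fold change of all genes to 0.0073 to 0.074. No paired analysis was possible because the replicate numbers are rat numbers, none of which the ages share. Sema3c, Sema7a, Sema4d and Efnb2 missed the threshold only in the smaller set of rats, where limma called 0 genes. There, 1976 of 14770 genes and 20 of 61 members had an unadjusted p under 0.05. The same held for 4 of 18 Eph receptors and ephrins, 12 of 31 of the semaphorin family and 1 of 5 netrin family genes. It also held for 2 of 5 Slits and Robos and 13 of 73 records of other pathway genes. Sample quality weights called 5647 of all genes (38.2%), 19 members (31.1%), 7 Eph receptors and ephrins (38.9%) and 22 other pathway genes (30.1%). The full comparison called 2381 (16.1%), 12 (19.7%), 2 (11.1%) and 12 (16.4%) of these. Equal-total scaling called 2069 of all genes (14.0%), 0 netrin family genes (2 at an unadjusted p under 0.05) and 1 of the Slits and Robos. The larger set called 3469 of all genes (23.5%) and 12 members (19.7%), 8 of them shared with the full comparison, and 1 of the Slits and Robos. Without rats 78 and 80 limma called 1846 of all genes (12.5%), and the calls of Nrp1, Plxnd1, Robo1, Robo2 and Sema6a were lost. There were then 4 calls in the semaphorin family (12.9%), 0 among Slits and Robos (2 at an unadjusted p under 0.05) and 6 among other pathway genes (8.22%). With each rat left out in turn, calls ranged from 1411 (9.54%, without rat 70) to 2680 (18.1%) of all genes, with 1488 without rat 84 and 1558 without rat 87. Calls among members ranged from 6 (9.84%, without rat 70 or rat 87) to 13 (21.3%), with 7 without rat 75, 84 or 72. By family they ranged from 2 to 3 Eph receptors and ephrins, 4 (without rat 70, 75, 72 or 87) to 7 of the semaphorin family, 0 to 1 netrin family genes (1 to 2 at an unadjusted p under 0.05 where 0 were called), 0 to 2 Slits and Robos (2 to 4 likewise) and 6 (without rat 84 or 72) to 12 other pathway genes, with 7 without rat 70 or 74. Values near 10 normalized counts rest on few reads in rats 78 and 80.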

Other observations

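Rats 78 and 81, both at 10 weeks and both in the smaller set, stood together in 3 semaphorins. They were highest of the older rats in Sema6a (2637 and 3258, the others 1608 to 2011) and in Sema4a (768 and 983, the others 305 to 502), and lowest in Sema3e (382 and 308, the others 696 to 984). Rat 83, of the same set and age, lay with the other older rats in all 3, at 1657, 502 and 892. These genes were picked after their values were seen, and no test was made.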
